A study of Mus musculus with 2 samples.

Results

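The run of microRNA genes from Mir379 to Mir410 is a cluster in the imprinted Dlk1-Dio3 region of mouse chromosome 12. Its members here are the genes of the deposited tables that the annotation places in a window around it, chosen by position alone, which gave 38 of 1973 genes. The 38 span 38.9 kb, from Mir379, which starts at 109709060, to Mir3072, which ends at 109747960 (build mm10). Small RNA below 30 in size (no unit is given) was sequenced from the hindbrain of healthy B6NCrl mouse embryos at day 15.5, in 2 libraries that pool both sexes. The pool of replicate 1 came from 78 embryos and that of replicate 2 from 62, with no treatment, mutation or other tissue in the series. The only comparison is therefore between these 2 pools, and hindbrain is a mixture of cell types.

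MicroRNAs are cut from hairpins in longer transcripts. One arm of the hairpin, or both, is loaded onto an Argonaute protein, and bases 2 to 8 of the mature strand, the seed, choose the messenger RNAs it represses. The cluster is found in placental mammals, is transcribed from the maternal chromosome together with the non-coding RNAs Meg3, Rian and Mirg, and is best known from neurons. Mice lacking it have been studied for anxiety-related and social behaviour and for metabolism at birth.

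The mature sequences of the most abundant members are shown first, since they make up most of what the cluster contributed to these libraries. Capitals mark the seed, each sequence runs 5′ to 3′, and all are from RefSeq (GRCm38.p6, the assembly of mm10).
miR-487b-5p: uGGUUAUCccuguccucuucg
miR-369-5p: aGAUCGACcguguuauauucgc
miR-369-3p: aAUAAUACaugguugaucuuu
miR-382-5p: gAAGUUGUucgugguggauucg
miR-382-3p: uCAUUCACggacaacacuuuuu
miR-411-5p: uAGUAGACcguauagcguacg
miR-411-3p: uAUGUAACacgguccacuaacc
miR-409-5p: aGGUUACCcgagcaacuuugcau
miR-409-3p: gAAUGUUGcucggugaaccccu
miR-541-5p: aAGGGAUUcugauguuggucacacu
miR-541-3p: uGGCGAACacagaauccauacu
The counts are per hairpin gene. Reads of both arms are added up, and neither arm can be named as the source. The other strand of Mir487b, miR-487b-3p, is not shown, because the RefSeq set used here holds no 3p strand for that gene. Its absence from the list does not mean that it gave no reads.

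A second set shows members whose sequences resemble each other. The pairs miR-379-3p and miR-411-3p, and miR-379-5p and miR-1193-5p, share a whole seed. The pairs miR-300-3p with miR-381-3p and miR-543-3p with miR-495-3p come from hairpins that share 16 and 12 bases, and do not share a whole seed.
miR-379-3p: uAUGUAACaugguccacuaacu
miR-379-5p: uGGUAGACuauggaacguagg
miR-1193-5p: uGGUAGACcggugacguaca
miR-300-3p: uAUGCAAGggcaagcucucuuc
miR-381-3p: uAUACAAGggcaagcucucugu
miR-543-3p: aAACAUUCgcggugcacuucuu
miR-495-3p: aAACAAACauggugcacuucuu

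The tables hold counts of reads per gene on both strands. Of 8327917 reads in replicate 1 and 10507754 in replicate 2, 3976628 and 4885641 were used as gene reads, and 35.4% and 34.2% were placed at several loci and given to no gene. Levels are in CPM, counts scaled so that the gene reads of each library sum to 1000000, and a ± value is the SD of the 2 libraries (n = 2). They are not divided by hairpin length, since the annotated mature strands are of like length, 60 of 69 being 21 to 23 bases long. For a gene with no read, up to 3 reads are allowed by counting error, which is 0.754 CPM in replicate 1 and 0.614 in replicate 2. Floors and intervals cover counting error only, because reads without molecular identifiers are not independent molecules. A level is a level of reads assigned to 1 gene. Members that share sequence with another locus can lose reads.

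The cluster held 346012 reads in replicate 1 and 403502 in replicate 2. This was 8.70% of the gene reads in replicate 1 (exact 95% interval 8.67 to 8.73) and 8.26% in replicate 2 (8.23 to 8.28), or 8.48% ± 0.313. Without the 4 members that share at least 20 bases with another microRNA gene (Mir487b, Mir411, Mir376c and Mir758) it was 4.45%. Of the 38 members, 34 had at least 10 reads in both libraries, 27 had a mean of at least 100 CPM and 12 of at least 1000 CPM. Among all genes of the tables, 1 member was in the 10 most abundant, 3 were in the first 25 and 8 in the first 50.

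A few hairpins carried the cluster. The 141057 reads of Mir487b in replicate 1 were 40.8% of the cluster's reads (40.6 to 40.9), and its 162014 reads in replicate 2 were 40.2% (40.0 to 40.3). With Mir369 and Mir382 it made up 61.0% ± 0.781, the 5 highest members made up 73.3% ± 0.791, and the 10 highest 91.1% ± 0.0158. The remaining 28 members shared 8.88% ± 0.0158. The highest tested member, Mir487b, stood 2241-fold above the lowest, Mir544, in mean CPM.

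**Figure D1:**
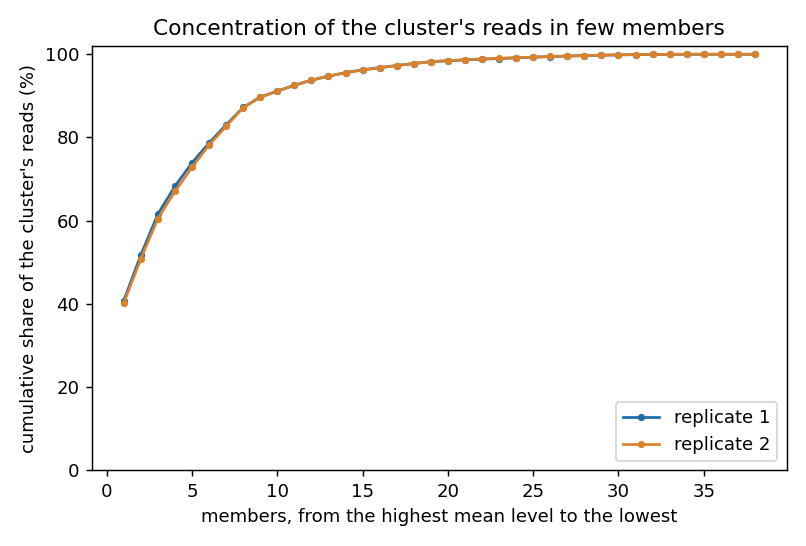
Cumulative share of the cluster's reads (y axis, percent) against the members ordered from the highest to the lowest mean level (x axis), 1 line for each library. Both lines start near 40% with Mir487b and pass 91% at the tenth member.

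Mir487b, at 109727333 to 109727414 on the plus strand, was the highest member, with 34316 ± 1634 CPM, and the eighth gene of the whole table. Mir369, at 109743418 to 109743496 in an exon of Mirg, had 9537 CPM in replicate 1 and 8800 in replicate 2. Its 3p strand is one of several from the cluster, with those of miR-496 and miR-543, described as acting on N-cadherin during neurogenesis in the cortex. Mir382, at 109733771 to 109733846 in another exon of Mirg, had 8567 and 7980 CPM. Mir487b was above both in each library by more than the spread between the pools, 3.72-fold over Mir369 in replicate 1 and 3.77-fold in replicate 2. Mir369 was 1.11-fold and 1.10-fold above Mir382, and its lower value lay above the higher value of Mir382.

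Below these 3 came 5 members from Mir411 down to Mir381. Mir411 had 5819 CPM in replicate 1 and 5404 in replicate 2. Mir409 had 4903 and 4761 CPM. Mir541, whose 5p strand is known as a repressor of the synaptic vesicle protein synapsin I, had 4161 and 4487 CPM. The values of these 3 did not overlap. Mir376a, from a family of hairpins known as targets of A-to-I RNA editing in brain, had 3777 and 3666 CPM. Mir381 had 3646 and 3715 CPM, and the ranges of Mir376a and Mir381 overlapped, so their order is not given.

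A further 7 members ran from Mir379 to Mir380. Mir379, the first hairpin of the cluster, had 2158 CPM in replicate 1 and 2064 in replicate 2. Mir323 had 1252 and 1206 CPM and Mir154, which gives its name to the sequence family that many of these hairpins belong to, had 1231 and 1177. These last 2 overlapped. Mir134, which acts in dendrites and limits spine size by repressing the kinase Limk1, had 1062 and 1006 CPM, below all of them. Mir300 had 846 and 829 CPM, Mir543 had 715 and 649, and Mir380 had 623 and 552, with no overlap between any of the 3.

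The other tested members were lower. Mir299a had 451 and 437 CPM and Mir485 had 421 and 452, and their ranges overlapped. Below Mir299a the order went on through Mir1193 (414 ± 22.4 CPM), Mir376c (379 ± 8.28 CPM) and Mir667 (203 ± 1.37 CPM) to Mir3072 (26.9 ± 3.26 CPM) and Mir544 (15.3 ± 3.52 CPM). Mir329, Mir495, Mir494 and Mir412 lay close together, from a mean of 136 CPM to 122, and each overlapped the next. Of the others, Mir496a had 181 ± 10.6 CPM, Mir668 147 ± 8.75 and Mir410, the last hairpin of the name-giving run, 111 ± 6.32. Mir539 at 85.7 ± 12.6 CPM and Mir666 at 81.1 ± 0.911 overlapped, and Mir377 at 67.9 ± 3.15 lay below both. The SD was a median of 4.99% of the mean over the 34 tested members, from 0.674% for Mir667 to 23.6% for Mir679. In the order of the 34 tested members, 24 of the 33 neighbours were separated by more than the range of the 2 libraries. The order was nearly the same in both, with a Spearman rho of 0.994 across these 34 genes, which share their library and depth.

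Of the members that were not tested, Mir654 and Mir453 had no read in either library, which allows at most the floors given above. Mir1197 had 3 reads in each library, and the predicted gene Gm27379 had 2 reads in replicate 1 and 0 in replicate 2. Mir376b is annotated in the cluster and was not analysed here. It may matter for 2 members, because the hairpin of Mir376c shares 31 bases with it and that of Mir487b shares 20. Whether these stretches lie within mature strands was not tested.

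**Figure D2:**
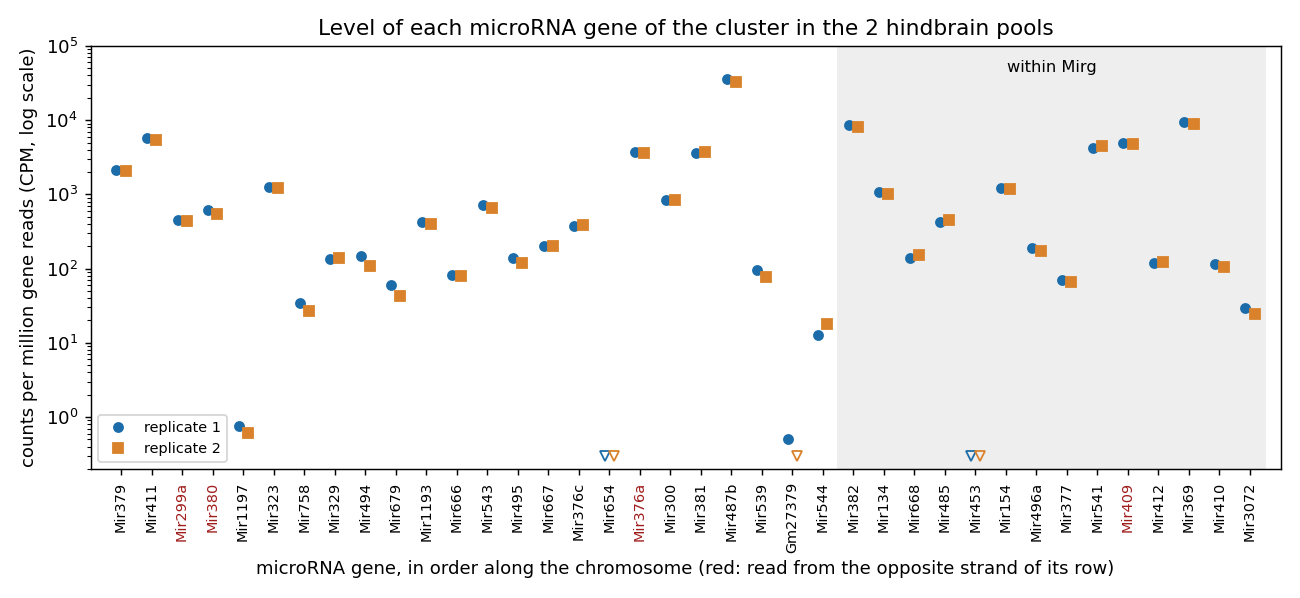
CPM on a log scale of the 38 members in chromosomal order, with a circle for replicate 1 and a square for replicate 2. Open triangles at the bottom mark a count of 0, names in red are members counted on the opposite strand of their row, and the grey area marks the 14 members within Mirg. The libraries nearly coincide for each abundant member, while neighbours differ widely, as Mir487b and Mir539 do, by 375-fold and 432-fold.

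Levels did not rise or fall steadily along the cluster. Across the 34 tested members, Spearman's rho between position and mean CPM was -0.03, given as a description of genes that share these libraries. Neighbouring tested hairpins differed by a median of 5.33-fold over 33 pairs, against 6.86-fold over all 561 pairs, and 8 neighbouring pairs differed by more than 10-fold. Whether neighbours are closer in level than other pairs was not tested. Closely spaced hairpins differed too, as at the 3′ end, where 4 hairpins of Mirg are separated by 51, 49 and 218 bases. Mir409 stood 41.3-fold above Mir412 in replicate 1 and 38.2-fold in replicate 2. Mir369 stood 80.4-fold and 70.6-fold above Mir412, and 82.8-fold above Mir410 in both libraries. High and low hairpins alternated over this stretch, at nearly equal ratios in the 2 pools. The largest differences between tested neighbours lay further upstream. Mir382 stood 668-fold and 448-fold above Mir544, across the widest gap of 4368 bases, and Mir487b stood 375-fold and 432-fold above Mir539, 714 bases away.

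Of the 38 members, 14 lie within the non-coding transcript Mirg in GENCODE M21, 9 overlapping an exon of at least 1 of its isoforms and 5 in introns. They held 35.3% ± 0.272 of the cluster's reads. The exonic ones ran from Mir3072 at 26.9 CPM to Mir369 at 9169 CPM, and the intronic ones from Mir453 with no read to Mir409 at 4832 CPM (the 5 intronic means were 0, 181, 1204, 4324 and 4832 CPM). Mir487b, the highest member, lies outside Mirg. The other 24 members have no annotated host on their strand. Their gaps and those within Mirg ran from 20 bases, between Mir679 and Mir1193, to 4368 bases, between Mir544 and Mir382, with a median of 590.

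For 4 members the deposited row is a gene annotated on the minus strand, and the plus-strand microRNA was read from the strand opposite to that row. These are Mir299a (row Mir299b), Mir380 (row Gm25750), Mir376a (row Gm25252) and Mir409 (row Gm24321). They held 38790 reads in replicate 1 and 46004 in replicate 2 on the plus strand, or 11.3% ± 0.135 of the cluster. On the minus strand the same 4 rows held 2 and 10 reads in all. The other 34 members, all on the plus strand, had 307222 and 357498 reads on that strand and 0 on the other. With the rows' own strand the cluster's share of gene reads would have been 7.59% in place of 8.48%, and Mir409, the fifth highest member, would have been at 0. Rows outside the cluster were counted on their own strand only. With both strands of every row counted, the cluster's share was 8.38%.

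Some of the members' sequences share a seed, which the position rule does not use. How often seeds recur within other sets of microRNAs was not counted. RefSeq gave 69 mature sequences for 37 of the 38 members. The set used here has no 3p strand for Mir487b, Mir376c and Mir539 and no 5p strand for Mir485, so sequence counts leave those out. The 69 sequences hold 64 distinct seeds, of which 5 occur in 2 members each and 12 also in another RefSeq microRNA. Those others include Mir376b of the same cluster and the minus-strand Mir299b. The most abundant shared seed was AUGUAAC of miR-379-3p and miR-411-3p, whose genes together had 7723 CPM. Mir411 stood above Mir379 by 2.70-fold in replicate 1 and 2.62-fold in replicate 2. The other shared seeds were GGUAGAC (miR-379-5p and miR-1193-5p), GGUUGUC (miR-494-5p and miR-410-5p), GGUUGCC (miR-453 and miR-496a-5p) and GGUUGAC (miR-1197-5p and miR-758-5p). Their genes summed to 2525, 238, 181 and 31.3 CPM. These sums hold the reads of both arms, not only of the arm that bears the seed.

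Hairpins with like stretches differed in level. A short shared stretch does not by itself show a common origin, since Mir679 shares 14 bases with Mir449a. Mir300 and Mir381 share 16 bases, and Mir381 stood above its partner 4.31-fold in replicate 1 and 4.48-fold in replicate 2. Mir543 and Mir495 share 12 bases, and Mir543 was above 5.22-fold and 5.46-fold. Mir411 and Mir758 share 21 bases of hairpin sequence, a stretch that does not lie within the mature strands of both. They had 5612 ± 293 and 30.6 ± 5.40 CPM. Whether any reads matched both was not tested, so the level of Mir758 in particular is uncertain.

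Short words recurred across arms. Every word of 6 letters was counted in the mature strands as written, and the 4 given here are among the 12 most frequent, chosen after their counts were seen. They can overlap one another. The ranking was by count in the members, so a high share there was built in. GUUGCC was in 7 of the 69 mature sequences of members (10.1%) and in 4 of the 1669 other RefSeq mature sequences (0.240%). These were miR-543-5p, miR-495-5p, miR-381-5p, miR-453, miR-154-5p, miR-496a-5p and miR-377-5p. GGUUGA was in 6 (8.70%) and in 1 of the others (0.0599%), and AGGUUG in 6 and in 19 of the others (1.14%). ACACGG was in 5, each a 3p strand, and in 2 of the others (0.120%). Over all 12 words the share among the others ran from 0.0599%, for GGUUGA, to 1.26%, for ACAUGG. Members with GUUGCC ran from Mir453, with no read, to Mir381 at 3680 CPM, so sharing the word did not go with a common level. The hairpins had a median GC content of 43.4% over 35 with a sequence, against 51.9% over 969 other hairpins. Across the 32 tested members with a hairpin sequence, Spearman's rho between GC content and level was -0.10, as a description.

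Of the genes outside the cluster that bear one of its seeds, the 3 highest were Mir1983 (2622 ± 234 CPM), which shares UCACCUG with miR-412-3p, Mir370 (1040 ± 55.6 CPM), which shares AGGUCAC of its 5p strand with miR-1193-3p, and Mir672 (279 ± 14.6 CPM), which shares GAGGUUG with miR-377-5p. Mir370 lies upstream in the same imprinted region.

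The 2 pools were then compared, member by member, to see how far the cluster varies between biological replicates. Most members had a slightly lower level in replicate 2. With TMM scaling of the 429 genes that reached 10 reads in a library, 26 of 34 tested members (76.5%) had a ratio below 0 on the log2 scale, against 52.0% of all tested genes. By the exact two-sided binomial test with Benjamini-Hochberg adjustment over all 429 genes, 17 members were lower (50%, against 21.2% of all tested genes) and 1 was higher (2.94%, against 16.3%). This test sets 1 library against 1 library and covers counting error only. Members are neighbours on 1 chromosome, possibly on 1 transcript, and do not count as independent.

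Members also had more reads than most genes, with a median of 1692 and 2040 reads over the 34 tested against 377 and 471 over all tested genes. Among genes of at least 100 mean CPM, 59.3% of the 27 members passed the test in either direction, near the 58.5% of all 212 such genes. Of these 27 members 15 were lower (55.6%), against 35.8% of the 212. The median log2 ratio was -0.09 over the 34 tested members and -0.01 over all tested genes. At a mean of at least 100 CPM it was -0.08 over the 27 members and -0.03 over the 212 genes. The sum of all cluster reads gave -0.09 (exact 95% interval -0.10 to -0.08), and without Mir487b -0.07 (-0.08 to -0.07).

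The 4 highest members were all lower in replicate 2, by close amounts. The log2 ratio was -0.11 for Mir487b (-0.12 to -0.10), -0.13 for Mir369 (-0.15 to -0.11) and -0.12 for Mir382 (-0.14 to -0.10). Mir411 was at -0.12 (-0.15 to -0.10). Among the next 4 members by level, Mir409 and Mir376a were at -0.06 each. Each of these 6 was lower past the threshold, by less than 1.10-fold. Mir381 was at 0.01 (-0.02 to 0.04) and did not pass. Mir541 was the only member called higher, at 0.09 (0.07 to 0.12; adjusted exact binomial p = 1.17e-09), a 1.07-fold difference.

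The largest called differences were in a pair of neighbours, 174 bases apart. Mir494 had 587 reads in replicate 1 and 524 in replicate 2, or 148 and 107 CPM, a log2 ratio of -0.47 (-0.65 to -0.30; adjusted exact binomial p = 2.64e-07). Mir679 had 237 and 208 reads, or 59.6 and 42.6 CPM, a log2 ratio of -0.50 (-0.77 to -0.22; adjusted exact binomial p = 0.00114). Both were thus lower in replicate 2, by 1.39-fold and 1.41-fold, and the next largest called difference was that of Mir539, 1.24-fold. Mir1193, the next hairpin 20 bases further on, was at -0.12 (-0.22 to -0.03) and also called lower, and Mir329, the preceding one, at 0.03 (-0.14 to 0.19). Mir544, with 51 and 87 reads, had a log2 ratio of 0.46 (-0.06 to 0.99) and did not pass.

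**Figure D3:**
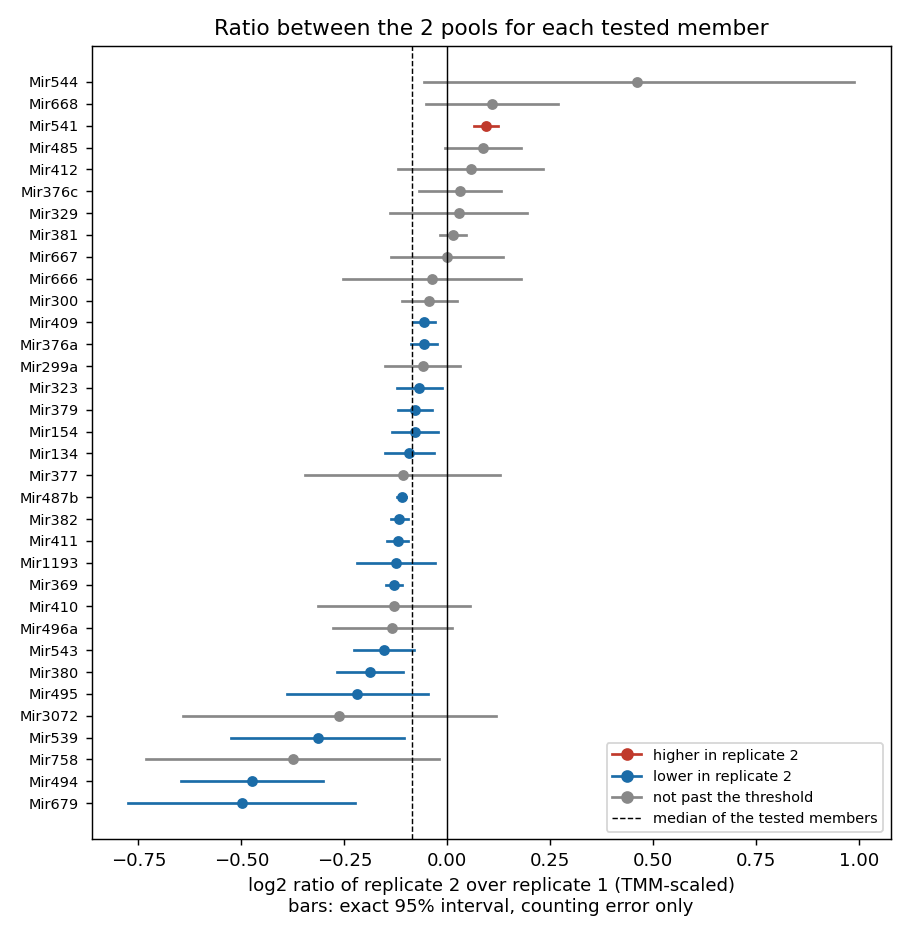
Log2 ratio of replicate 2 over replicate 1 (x axis, TMM-scaled) for the 34 tested members, ordered by ratio, with exact 95% intervals for counting error. Points in blue (17) were lower in replicate 2 and the point in red (Mir541) was higher by the exact binomial test, and the dashed line is the members' median of -0.09. Mir494 and Mir679 lie lowest, and abundant members such as Mir487b have intervals narrower than the points.

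None of these differences was called when each gene was given a preset variation between pools. The preset was not estimated from these pools. Under it, differences as small as those of the most abundant members cannot pass, however many reads they have. With the coefficient of variation of each gene set to 0.1, the exact test of edgeR called 0 of the 34 members, against 6 of 429 genes (1.4%). At an unadjusted p under 0.05 it gave 2 members (5.88%), no larger a share than the 7.93% of all 429 genes. These were Mir494 (adjusted p = 0.582 by edgeR's exact test) and Mir679 (adjusted p = 0.601). The number of members called lower by the binomial test was 9 when genes with 1 read or more entered the scaling and the test. The SD of the log2 ratio was 0.12 over the members of at least 100 mean CPM and 0.18 over the 212 genes of that level.

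The microRNA genes of the same imprinted region upstream of the cluster, from Mir1906-1 at 109544541 to Mir882 at 109682273, were set beside it. These lie around Meg3, opposite the gene Rtl1 and in Rian. They number 20, of which 15 were tested, and held 1.93% ± 0.00268 of the gene reads. Mir127, which lies opposite Rtl1, was the highest with 7741 ± 28.7 CPM, followed by Mir431 (2381 ± 185 CPM) and Mir434 (2159 ± 30.2 CPM). The cluster had 4.50 reads for each upstream read in replicate 1 and 4.28 in replicate 2 (4.39 ± 0.156). Of the 15 upstream genes 4 were lower in replicate 2 (26.7%, against 21.2% of all tested genes) and 2 higher (13.3%, against 16.3%) by the exact binomial test, shares near those of all genes. Their median log2 ratio was -0.01, and the sum of their reads gave -0.02 (-0.03 to -0.00). The upstream genes held 1.93% of the gene reads in each library, where the cluster held 8.70% and 8.26%. With 1 library on each side, the difference between the 2 groups of genes was not tested.

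MicroRNAs known from other cell types were compared between the pools in the same way. Their calls by the exact binomial test are to be read against the 16.3% of all tested genes that were higher, the 21.2% that were lower, and the 58.5% that passed in either direction among genes of at least 100 mean CPM. The choroid plexus and ciliated cell list (Mir204, Mir449a, Mir34c) summed to 5517 CPM in replicate 1 and 7044 in replicate 2, with 3 of 3 genes higher. The neuronal list (Mir124a-1, Mir124a-2, Mir124a-3, Mir128-1, Mir128-2, Mir137, Mir149) summed to 31485 and 32581 CPM, with 3 of 7 genes higher and 1 lower. Mir149, the gene called lower, held 20346 and 19937 CPM of these sums. Mir128-1, Mir128-2 and Mir137 were the higher ones. The Mir124a genes had means of only 1.88 to 3.91 CPM, and reads placed at several loci were given to no gene. Endothelial Mir126a was lower, at 25451 and 22388 CPM, as were 1 of 3 mesenchymal genes (6419 and 5785 CPM in sum), 2 of 3 leukocyte genes (474 and 373 CPM) and both erythroid genes (172 and 124 CPM). Mir122 of liver was higher, at 35.2 and 56.5 CPM, and of the striated muscle list Mir1a-1 and Mir133a-1 had no read while Mir206 had 26.9 and 23.1 CPM. The part of these differences in the cluster's lower reading in replicate 2 was not tested. In bulk tissue, fewer cells of a type and less RNA per cell cannot be told apart.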

How the data were processed

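The authors deposited raw read counts per gene for each library, on mm10 and GENCODE M4 per the file headers of the accompanying notes. For the aligner and counter, the name is not given in the sources used here. A gene row holds counts for both strands, its own strand and the opposite strand. Own-strand counts were used, except for 4 minus-strand rows in the cluster, where the opposite strand was used, and the library total includes these. Rows of unassigned reads were left out. Symbols and positions came from GENCODE M21, matched by identifier for 1894 of 1973 rows. Shared stretches of at least 20 nt were searched among M21 microRNA transcripts on either strand, outside overlapping genes.

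Genes with at least 10 reads in a library were tested. TMM factors came from edgeR 4.0.16 (R 4.3.3), and no replicated test is possible with 1 library on each side. Ratios have exact conditional binomial p-values (scipy 1.17.1), adjusted by Benjamini-Hochberg with a threshold of 0.05, and exact 95% intervals. The test was tested on simulated data with counting error only and without TMM scaling. Its behaviour under variation between pools was not tested. Alternatives were DESeq2 1.42.0 size factors, total counts, other minimums, other strand choices, leaving out members with shared stretches, leaving out each library, and edgeR's exact test with a preset variation. All members may be named. Values by library were given for the 15 highest, the 4 read from the opposite strand, those past the threshold with a ratio of at least 5 to 4 and those at 0. The members were set by position, and the marker lists were chosen with earlier results of these data known.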

Additional observations from a re-analysis of the deposited data

Results flagged for a closer look

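In the row Mir299b, the minus strand, which is not used for any level here, held 10 reads in replicate 2, above the 3 reads that a count of 0 allows, and 2 in replicate 1. The plus strand at the same place, counted as Mir299a, held 2136 and 1795 reads. The other 3 minus-strand rows had 0 reads on their own strand in both libraries.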

How the results depend on the processing

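The cluster's share of gene reads was 8.48%, and it was 7.59% when every row was read on its own strand and 4.45% without the 4 members that share at least 20 nt with another microRNA gene, of which Mir487b is one. The reads for each upstream read were 4.39, and 3.90 and 2.30 under the same alternatives. Leaving out each library gave 8.26% to 8.70% and 4.28 to 4.50. Members called lower in replicate 2 were 17, and 14 to 16 under the other scalings, strand choices, the minimum of 50 reads and without members with shared stretches. Reading every row on its own strand takes away Mir380, Mir376a and Mir409, which were called lower. Leaving out shared stretches takes away Mir487b and Mir411, also called lower, so both counts are over fewer members. The members called lower were 9, with 2 called higher, at a minimum of 1 read, and 0 in each direction with edgeR's exact test at a coefficient of variation of 0.1. The cause was not tested. The median log2 ratio kept its sign, between -0.10 and -0.07. The 18 named members were each tried with DESeq2 size factors, total counts and both strands together. Of these 54 alternatives, none reversed, and 5, for Mir323 and Mir154, no longer passed. Each other scaling moved all ratios by the same small amount, and counting both strands moved them nearly alike. The 54 are therefore not separate checks, and shifts of that size could not reverse any of these ratios. Mir299a, Mir300 and Mir381 are among the 18 and had not passed to begin with. The other minimums and edgeR's exact test are not among the 54. No paired analysis was possible because there is 1 group.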
